A study of Mus musculus with 8 samples.

Results

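Calsyntenins are single-pass membrane proteins with cadherin repeats that are found in neurons, on vesicles and at synapses, and mice carry 3 genes for them, Clstn1, Clstn2 and Clstn3. The 3 genes were taken by symbol from a table of 56576 genes, where each symbol has 1 row. RNA bound to ribosomes was measured in neocortical synaptosomes, which are membrane-enclosed synaptic endings, from mice at postnatal day 15. Controls were Lhx6-Cre;Erbb4+/+;Rpl22HA/HA (4 libraries, replicate numbers 1, 3, 4 and 5). In the mutants, Lhx6-Cre;Erbb4F/F;Rpl22HA/HA, Cre removes Erbb4 (4 libraries, numbers 2, 3, 4 and 5). All 8 libraries carried Lhx6-Cre and an HA-tagged ribosomal protein L22, so the genotypes differed in the Erbb4 alleles. Lhx6-Cre recombines in cortical interneurons whose progenitors lie in the preoptic area and medial ganglionic eminence (MGE), mainly those that later express parvalbumin (PV) or somatostatin (SST). The comparison asks how the calsyntenin mRNAs held by interneuron ribosomes at the synapse differ when these interneurons lack ErbB4, a receptor tyrosine kinase for neuregulins.

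Calsyntenins link membrane cargo to the cell's transport system and also act as adhesion molecules. Their cytoplasmic ends can bind the light chains of kinesin-1, the motor that carries vesicles along axons, and the X11 and Fe65 adaptors, which also bind the amyloid precursor protein. They are cut like the amyloid precursor, first by sheddases at the cell surface and then by gamma-secretase within the membrane. Clstn3 also binds neurexins, presynaptic adhesion proteins that organise synapses, and calsyntenins are present at both excitatory and inhibitory synapses. All of the calsyntenin genes were among the adhesion candidates that the study drew from genes it called lower in these same libraries, and Clstn2 was the one it took on to functional tests, so the direction of the calsyntenins described here is not independent evidence.

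Values are reads counted on each gene, divided by 1 size factor per library. Libraries held between 51010687 and 80226984 reads on genes. Erbb4 ranged from 1640 to 5377 normalized counts in controls and from 1048 to 1711 in mutants, with a log2 fold change of -1.25 (SE 0.34, unadjusted limma p of 0.00412, adjusted p = 0.58), and control 1, the lowest control, lay among the mutants. Rpl22, the gene of the tagged ribosomal protein, had a log2 fold change of -0.47 (SE 0.32, adjusted p = 0.631). Control 1 also listed the fewest genes above 0, 28247 against 31141 to 34364 in the other libraries. The markers of the labelled cells were present in every library: the 7 MGE interneuron markers summed to between 12637 and 74003 normalized counts. Markers of cells without Lhx6-Cre were present as well, with 109325 to 151153 for 7 excitatory neuron markers and 179464 to 641459 for 5 oligodendrocyte markers, and the part of this RNA in the calsyntenin values was not tested.

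The genes lie on 3 chromosomes. In mm10, Clstn1 (GSMG0027400) spans chr4:149586428-149648898, Clstn2 (GSMG0041170) spans chr9:97444397-98033181 and Clstn3 (GSMG0033657) spans chr6:124430756-124464784. Clstn2 was by far the longest, at 588785 bases against 62471 for Clstn1 and 34029 for Clstn3. Their longest coding transcripts were of similar length, 4459, 4365 and 4014 bases. The table lists 2 other genes within the span of Clstn1, 7 within that of Clstn2 and 0 within that of Clstn3. One of them is an unnamed 315-base gene near the 3' end of Clstn1 (chr4:149647888-149648202), which held 4016 to 8923 normalized counts, and reads of overlapping genes could not be told apart by strand here.

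The stretch around each gene's start is shown, from 110 bases before the RefSeq start to 10 bases after it (GRCm38.p6, the assembly of mm10, from RefSeq). Capitals mark TGACGTCA, the full cAMP response element (CRE), which reads the same on both strands.
Clstn1, chr4:149586358-149586477, plus strand: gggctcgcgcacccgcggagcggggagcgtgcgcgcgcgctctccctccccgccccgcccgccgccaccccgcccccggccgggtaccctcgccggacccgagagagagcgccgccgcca
Clstn2, chr9:98033158-98033277, minus strand: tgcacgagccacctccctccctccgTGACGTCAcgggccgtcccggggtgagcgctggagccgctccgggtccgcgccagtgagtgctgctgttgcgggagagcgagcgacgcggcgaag
Clstn3, chr6:124464775-124464894, minus strand: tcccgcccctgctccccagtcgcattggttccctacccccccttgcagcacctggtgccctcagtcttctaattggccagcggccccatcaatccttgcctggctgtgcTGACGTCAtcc
The Clstn2 element began 85 bases before the start, and the Clstn3 element began 1 base before it and so spanned it. No CRE was found in the window of Clstn1 or in that of a second RefSeq start of Clstn3, at position 124462744 of chromosome 6. Of all 32851 RefSeq windows of 300 bases (250 before to 50 after a start), 588 (1.79%) held the element on either strand. GC boxes (GGGCGG, either strand) numbered 3 for Clstn1 and 1 each for Clstn2 and the first start of Clstn3, and 35.7% of all windows held at least 1. A TATA box (TATAAA, either strand) was found in none of these windows and in 13.6% of all. GC content was 79.7% for Clstn1, 72.7% for Clstn2 and 58.3% for Clstn3, with a median of 52.7% over all windows. The CRE was chosen after these sequences were seen, so its share of all windows is not a test of the match. These matches are descriptions of the sequence. Binding was not measured, and the part of the CRE in the calsyntenin levels was not tested.

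Clstn1 was the most abundant calsyntenin in every library. Per kilobase of its longest coding transcript, Clstn1 averaged 46469 ± 15795 normalized counts in controls and 34174 ± 4742 in mutants (SD, n = 4 each). Clstn3 came next, with 5813 ± 2636 in controls and 3577 ± 1614 in mutants. Clstn2 was the lowest, with 2535 ± 951 in controls and 1599 ± 654 in mutants. This order held in 8 of 8 libraries, with no overlap between neighbours within a library. The level per kilobase of Clstn1 was 20.5 times that of Clstn2 (geometric mean, range 16.01 to 30.9) and 9.22 times that of Clstn3 (range 6.94 to 14.5). Clstn2 reached 0.449 times the level of Clstn3 (range 0.384 to 0.500). Reads were counted on constitutive regions, whose lengths were not known here, so levels per kilobase are approximate. Without division by length the mean log2 ratios were 4.39 (Clstn1 to Clstn2), 3.36 (Clstn1 to Clstn3) and -1.03 (Clstn2 to Clstn3). Each of the 3 within-library differences had an exact sign-flip permutation p of 0.00781 over the 8 libraries (two-sided, unchanged after adjustment over 3), which is the smallest that 8 libraries allow.

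By normalized counts, Clstn1 was one of the most abundant of the 31171 genes tested, at rank 10 to 48 in controls and 14 to 21 in mutants. It took between 0.191% and 0.356% of all reads on genes. Clstn3 ranked between 297 and 1479 and Clstn2 between 871 and 2969. Even the lowest calsyntenin value, Clstn2 in mutant 5, rested on 4301 reads, a counting error of 1.52% if every read is independent. Whether reads were copies of the same molecule is not known here, so the true error may be larger.

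Clstn1, which encodes the calsyntenin best known as a kinesin-1 cargo adaptor, had 137285 normalized counts in control 1, 292948 in control 3, 234754 in control 4 and 163829 in control 5. In mutants it had 167782 in replicate 2, 173383 in replicate 3, 133711 in replicate 4 and 134654 in replicate 5. The highest values were those of controls 3 and 4, while controls 1 and 5 lay among the mutants, so the genotypes overlapped. The means were 207204 ± 70430 in controls and 152383 ± 21143 in mutants (SD, n = 4 each). The log2 fold change, mutant minus control, was -0.39 (SE 0.33, 95% confidence interval -1.12 to 0.34), and Clstn1 was not called (unadjusted limma p of 0.261, adjusted p = 0.687). The value ran from -0.57 without control 1 to -0.20 without control 3.

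Clstn2, an adhesion molecule of the postsynaptic membrane, had 8394 normalized counts in control 1, 15764 in control 3, 13243 in control 4 and 6854 in control 5. Mutants held 9242 in replicate 2, 9640 in replicate 3, 4760 in replicate 4 and 4268 in replicate 5. Mutants 4 and 5 were below every control, but mutants 2 and 3 exceeded controls 1 and 5, so the genotypes overlapped. The mean was 11064 ± 4151 in controls and 6978 ± 2856 in mutants (SD, n = 4 each). The log2 fold change was -0.68 (SE 0.35, 95% confidence interval -1.45 to 0.08), which was past the fold threshold of 1.5 but not past the p threshold of 0.05 (unadjusted limma p of 0.0748, adjusted p = 0.581). Single libraries moved the value and the call in both directions. Clstn2 was called lower without control 5 (-0.89, limma p of 0.0303), without mutant 2 (-0.85, p of 0.0453) or without mutant 3 (-0.87, p of 0.0382). In that order, these fits called 1977 of 31128, 1188 of 31178 and 1179 of 31203 genes lower. Clstn2 was at -0.49 without control 3, -0.53 without mutant 4 and -0.48 without mutant 5, and was not called there.

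Clstn3, the neurexin-binding calsyntenin, had 17813 normalized counts in control 1, 37724 in control 3, 24337 in control 4 and 13464 in control 5. In mutants the counts were 19519 in replicate 2, 20381 in replicate 3, 9182 in replicate 4 and 8346 in replicate 5. The libraries fell in exactly the order they had for Clstn2, again with mutants 4 and 5 lowest and mutants 2 and 3 above controls 1 and 5. Means were 23334 ± 10583 in controls and 14357 ± 6477 in mutants (SD, n = 4 each). The log2 fold change was -0.71 (SE 0.39, 95% confidence interval -1.56 to 0.14), and Clstn3 was not called (unadjusted limma p of 0.0916, adjusted p = 0.583). It was called lower without control 5 (-0.94, limma p of 0.0361) or without mutant 3 (-0.92, p of 0.0468). These fits called 1977 of 31128 and 1179 of 31203 genes lower. Clstn3 was at -0.45 without control 3, -0.54 without mutant 4 and -0.49 without mutant 5, and was not called there.

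**Figure D1:**
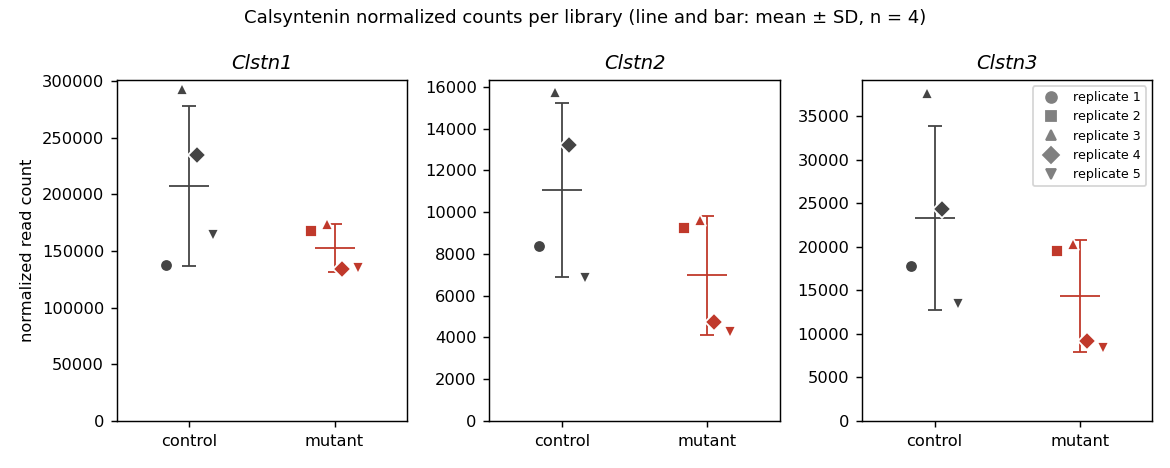
Normalized read counts of Clstn1, Clstn2 and Clstn3 in each library, controls in grey and mutants in red, with the marker giving the replicate number and the line and bar the mean ± SD (n = 4). Mutant means are lower for all 3 genes, and the genotypes overlap in each, as with Clstn2, where controls run from 6854 to 15764 and mutants from 4268 to 9640.

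Thus 0 of the 3 calsyntenins were called lower by limma at the thresholds used (unadjusted p at most 0.05 and at least 1.5-fold), where 3.17% of the 31171 genes tested were called lower and 3.98% higher. With edgeR and DESeq2 the count was also 0 of 3, where edgeR called 3.87% of all genes lower and 3.44% higher and DESeq2 5.05% and 4.05%, and 0 of 3 had an unadjusted p under 0.05 in any of these tools. None passed an adjusted p of 0.05 with limma, as did 0.0449% of all genes, and none was lower without overlap of the genotypes, as were 2.17%. The median log2 fold change of all genes tested was 0.06. Of all fold changes, 12.8% were below that of Clstn3, 13.5% below that of Clstn2 and 24.7% below that of Clstn1. The study, which used DESeq2 with a p of at most 0.05 and a fold of at least 1.5, had all 3 calsyntenins among its lower genes. Its calls were therefore not reproduced in these fits of limma, edgeR and DESeq2. The study also found most of its differential genes lower in mutants. Here limma called 988 genes lower and 1241 higher, and DESeq2 called 1573 and 1261. The reason for these differences was not tested. Since these are bulk samples, fewer interneurons, fewer tagged synaptic endings and less RNA per cell cannot be told apart.

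The replicate numbers 3, 4 and 5 occur in both genotypes. Within these numbers every mutant was below the control of the same number for every calsyntenin. The 3 genes rose and fell together across libraries, so these are not separate results. The share of all genes lower in every such pair was not computed. The log2 differences for numbers 3, 4 and 5 were -0.76, -0.81 and -0.28 for Clstn1. They were -0.71, -1.48 and -0.68 for Clstn2 and -0.89, -1.41 and -0.69 for Clstn3. With the number as a block, all 3 genes were called lower, where 5.51% of all genes tested were called lower and 4.64% higher. The values were -0.62 for Clstn1 (SE 0.17, limma p of 0.012, adjusted p = 0.202), -0.96 for Clstn2 (SE 0.19, p of 0.00315, adjusted p = 0.132) and -0.99 for Clstn3 (SE 0.17, p of 0.00142, adjusted p = 0.117). Few residual degrees of freedom remain for each gene in this fit, so its p-values draw on variance pooled across genes. An exact sign-flip test of 3 pairs cannot go below 0.25. Control 1 and mutant 2 share their number with no library of the other genotype and add nothing to the blocked log2 differences. In the same 6 libraries without the block the log2 differences were equal to these, with a limma p of 0.0988 for Clstn1, 0.0395 for Clstn2 and 0.0528 for Clstn3, so that Clstn2 alone was called. There 810 of 31236 genes were called lower and 1060 higher. Whether the numbers mark a shared preparation is not given in the labels. Some libraries of different numbers were as alike as those of the same number. Others were opposed, as control 3 was to mutants 4 and 5 (r of -0.28 and -0.32 after removal of the genotype means).

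The size of the differences depended on how the libraries were weighted and scaled. With weights for library quality, in which control 1 received 0.286 and mutant 4 received 2.87, Clstn2 and Clstn3 were called lower, both at -1.02 (limma p of 0.00656 and 0.0105). The weighted fit called 1633 of the 31171 genes lower and 1997 higher. Clstn1 moved to -0.56 (p of 0.0458), short of the fold threshold. Quantile normalization brought Clstn1 to -0.05 and left Clstn2 at -0.62 and Clstn3 at -0.61. Without control 1 the values were -0.57 for Clstn1, -0.79 for Clstn2 and -0.81 for Clstn3, and none was called.

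**Figure D2:**
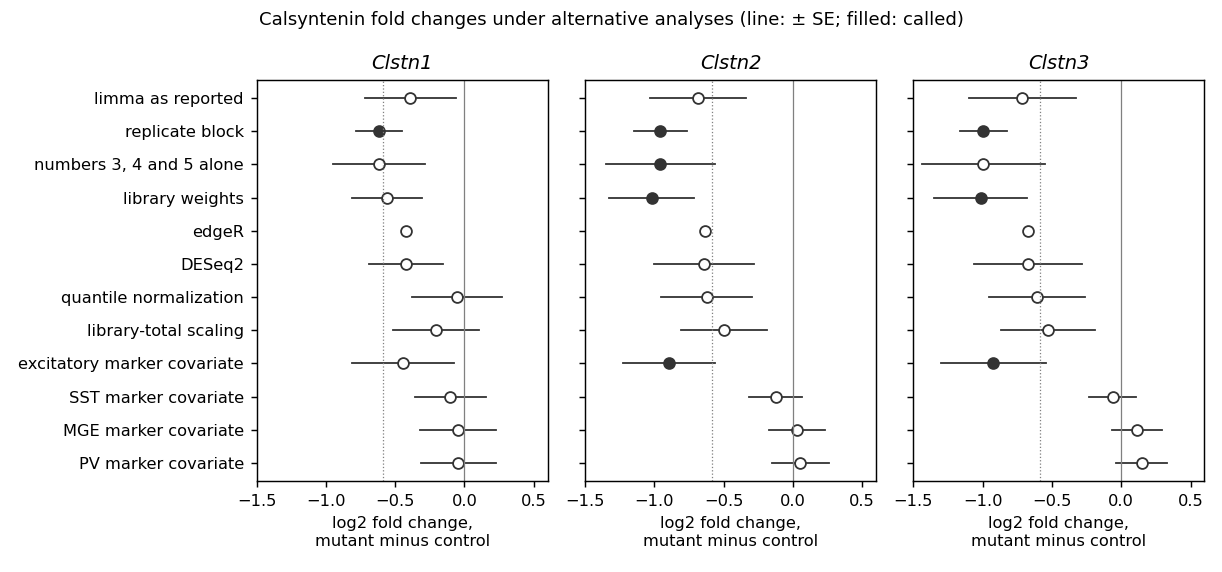
Log2 fold change (mutant minus control) of each calsyntenin in 12 analyses, with ± SE where the tool gives one, filled points marking calls and dotted lines the 1.5-fold threshold. Clstn2 and Clstn3 run from calls near -1 with a replicate block or library weights to between -0.12 and 0.15 with an interneuron marker covariate.

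Ratios between the paralogs within a library do not depend on its size factor. Clstn1 to Clstn2 was 16.4, 18.6, 17.7 and 23.9 in controls 1, 3, 4 and 5 and 18.2, 18.0, 28.1 and 31.6 in mutants 2, 3, 4 and 5. Mutants 4 and 5 had the highest ratios, and the other mutants lay within the controls. The mean log2 ratio differed by 0.29 between genotypes (exact permutation p = 0.257, two-sided, adjusted p = 0.429 over 3 ratios, n = 4 each). Its SD was 0.24 in controls and 0.42 in mutants. Clstn1 to Clstn3 ran from 7.71 to 12.2 in controls and from 8.51 to 16.1 in mutants, a log2 difference of 0.32 (exact permutation p = 0.286, adjusted p = 0.429). Per kilobase, Clstn1 made up 84.9% ± 2.4 of the summed calsyntenin level in controls and 87.3% ± 3.5 in mutants (SD, n = 4 each, exact permutation p = 0.257). A smaller change of Clstn1 than of its paralogs was therefore not shown.

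The ratio of Clstn2 to Clstn3 was nearly constant. It was 0.471, 0.418, 0.544 and 0.509 in controls 1, 3, 4 and 5. In mutants 2, 3, 4 and 5 it was 0.473, 0.473, 0.518 and 0.511. All 8 values lay within 0.38 on the log2 scale, although Clstn2 itself varied 3.69-fold and Clstn3 4.52-fold over the same libraries. The genotypes differed by 0.03 in the log2 ratio (exact permutation p = 0.714, adjusted p = 0.714, n = 4 each).

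**Figure D3:**
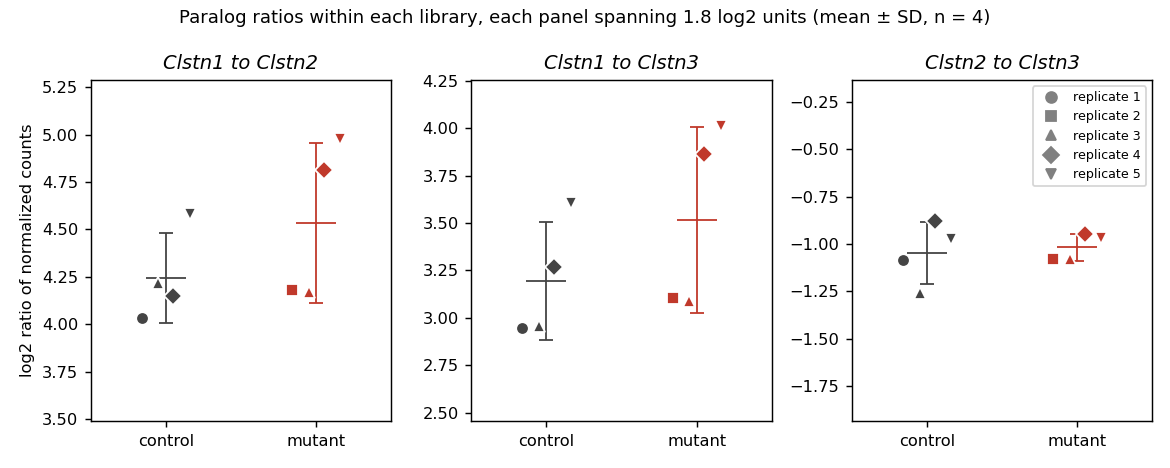
Log2 ratio of normalized counts between calsyntenin pairs in each library, with mean ± SD (n = 4) and all panels drawn over the same log2 span. The Clstn2 to Clstn3 ratios lie within 0.38 of each other, while the ratios with Clstn1 span 0.95 and 1.07, with mutants 4 and 5 highest.

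Across the 8 libraries the log2 levels of Clstn2 and Clstn3 followed each other with r = 0.990 (exact permutation p = 2.48e-05, adjusted p = 7.44e-05 over 3 pairs) and rho = 1 (exact permutation p = 4.96e-05, adjusted p = 0.000149). Without mutants 4 and 5, the libraries farthest from the median, r was 0.970. After removal of the genotype means it was 0.987. Clstn1 followed Clstn2 with r = 0.884 (exact permutation p = 0.00446, adjusted p = 0.00446) and rho = 0.952 (p = 0.00114, adjusted p = 0.00114), and r fell to 0.748 without controls 3 and 4. With Clstn3 it had r = 0.873 (exact permutation p = 0.00399, adjusted p = 0.00446), rho = 0.952 (p = 0.00114, adjusted p = 0.00114), and r = 0.725 without controls 3 and 4. All points share the size factor of their library, which moves both genes alike.

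Levels of interneuron markers moved with the calsyntenins. Of the 30 relations computed between 10 marker panels and the 3 genes, 7 passed an adjusted p of 0.05 for both r and rho: those of Clstn2 and Clstn3 with the MGE, PV and SST panels and that of Clstn1 with the SST panel. The SST panel (Sst, Npy, Nos1, Chodl and Elfn1) had r = 0.958 with Clstn2 and 0.984 with Clstn3 (exact permutation p = 2.48e-05 each, adjusted p = 0.000372), and its mean log2 level ranked the libraries exactly as Clstn2 and Clstn3 did (rho = 1, p = 4.96e-05, adjusted p = 0.000744). Without control 3 and mutant 5, r was 0.932 and 0.979. For the MGE panel, which holds Lhx6 and the GABA synthesis genes Gad1 and Gad2, r was 0.962 with Clstn2 and 0.980 with Clstn3 (exact permutation p = 0.000248 each, adjusted p = 0.00186; rho = 0.905, p = 0.00456, adjusted p = 0.0274), and 0.913 and 0.949 without control 3 and mutant 5. The PV panel, with Pvalb and the fast potassium channel genes Kcnc1 and Kcnc2, had r = 0.955 and 0.976 (exact permutation p = 0.000446 each, adjusted p = 0.00223; rho = 0.857, p = 0.0107, adjusted p = 0.0459), and 0.890 and 0.932 without the same libraries.

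Clstn1 followed these panels less closely. Its r was 0.825 with the SST panel (exact permutation p = 0.00933, adjusted p = 0.04; rho = 0.952, p = 0.00114, adjusted p = 0.0114) but 0.591 without control 3 and mutant 5, so that relation leaned on those libraries. With the MGE panel r was 0.796 (exact permutation p = 0.0194, adjusted p = 0.0727; rho = 0.810, p = 0.0218, adjusted p = 0.0817) and with the PV panel 0.782 (exact permutation p = 0.0226, adjusted p = 0.0754; rho = 0.738, p = 0.0458, adjusted p = 0.153). The excitatory neuron panel showed no relation that passed, with r = -0.006 for Clstn1, -0.262 for Clstn2 and -0.232 for Clstn3 (exact permutation p = 0.988, 0.529 and 0.58, adjusted p = 0.988, 0.908 and 0.908). No relation with the panels of interneurons from the caudal ganglionic eminence (CGE), astrocytes, oligodendrocytes, oligodendrocyte precursors, microglia or endothelial and mural cells passed either (lowest adjusted p = 0.641 for r). After removal of the genotype means, however, Clstn1 followed the endothelial and mural panel with r = 0.872, which was above its values for the SST (0.765), MGE (0.711) and PV (0.690) panels, while over all libraries the r with that panel was 0.153.

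The interneuron markers themselves varied widely. The summed SST markers ranged from 45350 to 460358 normalized counts in controls and from 11776 to 176634 in mutants, which is 39.1-fold over all libraries. The PV markers varied 9.64-fold and the MGE markers 5.86-fold. Outside the labelled cells the oligodendrocyte markers varied 3.57-fold, the CGE interneuron markers 2.20-fold and the excitatory markers 1.38-fold. Of the interneuron markers, 2 of 7 (MGE), 3 of 5 (PV) and 1 of 5 (SST) were called lower in mutants and 0 higher, beside 3.17% of all genes. With a block for the replicate number these counts were 4, 5 and 5, beside 5.51%. Without control 3, mutant 4 or mutant 5 they were 0, 1 and 0, where 551, 575 and 515 of all genes were called lower. They were 0, 2 and 2 without control 1 (643 genes) and 0, 2 and 0 without control 4 (1537). They rose to 4, 4 and 3 without control 5 (1977) and to 4, 4 and 2 without mutant 2 or mutant 3 (1188 and 1179). These fits tested 31128 to 31217 genes. Of the SST markers, Nos1 was above 0 (0.10, SE 0.75). Other panels moved with genotype as well. All 5 oligodendrocyte markers were below 0, with a median log2 fold change of -0.64. Of them 2 (Mog and Mag) were called lower with limma, 4 with edgeR, 5 with DESeq2 and 0 with the block. Over all genes the shares called lower were 3.17%, 3.87%, 5.05% and 5.51% in that order. Of 5 endothelial and mural markers, 2 (Flt1 and Pdgfrb) were called higher, with a median of 0.59, beside 3.98% of all genes, and 0 with the block. Without control 1, 0 markers of either panel were called. The part of these cells in the calsyntenin differences was not tested. With the MGE marker mean as a covariate the log2 differences were -0.05 for Clstn1, 0.031 for Clstn2 and 0.12 for Clstn3 (limma p of 0.865, 0.88 and 0.541). They were -0.04, 0.054 and 0.15 with the PV marker mean and -0.10, -0.12 and -0.06 with the SST marker mean. With the excitatory marker mean they were -0.44, -0.89 and -0.92, and Clstn2 and Clstn3 were called lower (limma p of 0.0228 and 0.0356). That fit called 1477 of the 31171 genes lower and 1448 higher. The marker means differ between genotypes themselves, so these fits also remove part of any genotype difference that the markers share, and the part of the interneuron RNA yield in the calsyntenin differences was not tested.

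**Figure D4:**
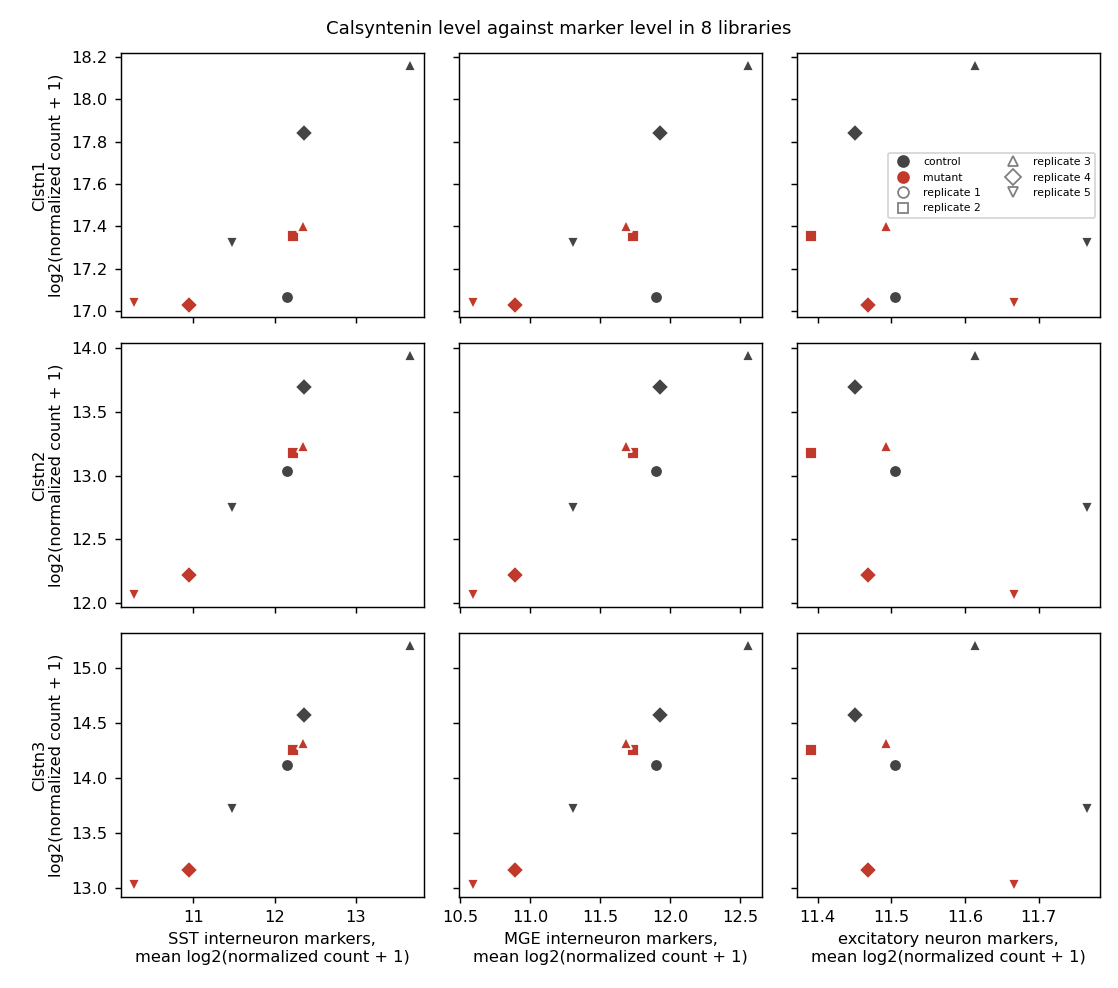
Log2 level of each calsyntenin (rows) against the mean log2 level of the SST, MGE and excitatory neuron markers (columns) in the 8 libraries, controls in grey and mutants in red. Clstn2 and Clstn3 rise with the SST markers in the same library order (rho = 1), and no such order is seen with the excitatory markers.

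The genes most like each calsyntenin over the 8 libraries were sought among the 19137 genes whose mean over all 8 libraries was 100 normalized counts or more, by Pearson's r of the log2 levels. For Clstn1 they were Kcnh2 (a potassium channel, r = 0.987), Atg9a (an autophagy membrane protein, 0.985), Slc12a5 (the neuronal chloride extruder KCC2, 0.982), Lypd6 (0.978) and Esrrg (a nuclear receptor, 0.976). For Clstn2 they included Sv2a (a synaptic vesicle protein, r = 0.994), Nrxn3 (a neurexin, 0.993), Clstn3 (0.990) and an unnamed gene (0.989). For Clstn3 they included Syt1 (the vesicle calcium sensor, r = 0.998), Sv2a (0.996), Nrxn3 (0.995) and Endod1 (0.993). Sv2a and Nrxn3 thus stood near both Clstn2 and Clstn3, and none of the genes nearest to Clstn1 did.

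Seen from Clstn2, Clstn3 was the fourth of 19136 other genes, and from Clstn3, Clstn2 was at place 11. From Clstn1, its paralogs were at places 178 (Clstn2) and 213 (Clstn3). An r of at least 0.95 was reached by 22 genes with Clstn1, 85 with Clstn2 and 176 with Clstn3. These are descriptions over 8 libraries that share their size factors.

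The partners of the calsyntenins were described from lists of genes with known roles. Genes of the kinesin-1 motor, which carries calsyntenin vesicles, gave 0 calls of 6 with limma, edgeR and DESeq2, and the median log2 fold change was -0.18. An unadjusted p under 0.05 was reached by 0 genes with limma and edgeR and by 1 with DESeq2. Of all 31171 genes, limma gave such a p to 1175 lower and 1421 higher, edgeR to 1390 and 1270, and DESeq2 to 1878 and 1590. The most abundant, Kif5a (a heavy chain), had 45752 ± 27119 normalized counts in controls and 40224 ± 10426 in mutants (SD, n = 4 each). Klc2, a light chain of the kind that binds calsyntenins, had the lowest log2 fold change at -0.35 (SE 0.24, adjusted p = 0.617). Kif5b, another heavy chain, had the highest at 0.14 (SE 0.18, adjusted p = 0.795).

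The X11 and Fe65 adaptors gave 0 calls of 6 with each tool, with a median log2 fold change of -0.03. An unadjusted p under 0.05 was found for 1 gene with limma and edgeR and for 3 with DESeq2. Over all 31171 genes it was found for 1175 lower and 1421 higher with limma, 1390 and 1270 with edgeR, and 1878 and 1590 with DESeq2. Apba2, which encodes an X11 protein, had the lowest value at -0.40 (SE 0.20, adjusted p = 0.58). Apbb2, a Fe65 family member and the most abundant of the list, had the highest at 0.48 (SE 0.20, adjusted p = 0.58). Its values ran from 13569 to 17433 in controls and from 19019 to 25943 in mutants without overlap, and it stayed under the 1.5-fold threshold. The share of all genes higher in mutants without overlap was not computed.

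The amyloid precursor family shares adaptors and processing with the calsyntenins. Its log2 fold changes ran from -0.71 to -0.62, with a median of -0.69. Of 3 genes, 0 were called with limma (0 at an unadjusted p under 0.05), 1 with edgeR (Aplp1) and 2 with DESeq2 (App and Aplp1). Over all genes limma called 3.17% lower, edgeR 3.87% and DESeq2 5.05%. App had 324904 ± 125085 normalized counts in controls and 196465 ± 71786 in mutants (SD, n = 4 each) and a log2 fold change of -0.71 (SE 0.42, adjusted p = 0.591). Aplp1, a neuronal relative, had -0.62 (SE 0.33, adjusted p = 0.581). With the replicate block 2 of 3, App and Aplp2, were called lower, beside 5.51% of all genes.

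Sheddases and gamma-secretase, the enzymes that cut calsyntenins, differed in both directions, with 1 of 9 genes called lower (3.17% of all genes), 2 called higher (3.98%) and a median log2 fold change of -0.37. Adam10, a sheddase of the cell surface, rose from 4525 ± 1815 to 6687 ± 266 normalized counts (SD, n = 4 each; log2 fold change 0.68, SE 0.30, adjusted p = 0.58). Its genotypes did not overlap, and the share of all genes higher without overlap was not computed. Adam17, another sheddase, rose from 3779 ± 850 to 5627 ± 820 (0.59, SE 0.22). Psen2, a catalytic subunit of gamma-secretase, fell from 1901 ± 809 to 920 ± 582 (-1.18, SE 0.50, adjusted p = 0.58), with overlap of the genotypes. Ncstn, which encodes the subunit nicastrin and was the most abundant of the list, had -0.37 (SE 0.33, adjusted p = 0.702). With the replicate block Psen2 stayed called and Adam10 and Adam17 did not, while Aph1c, another subunit, was called lower. The block called 5.51% of all genes lower. With edgeR 0 were called lower and only Adam17 higher, beside 3.87% and 3.44% of all genes. With DESeq2 Psen2 and Psenen were called lower and Adam17 higher, beside 5.05% and 4.05%. The call of Adam10 was also missing with a pseudocount of 0.1 (limma p of 0.0518), with no filter on low values (0.0513) and with a mean of at least 100 (0.0509). Without control 1 none of the 9 was called.

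The 2 neurexin genes of the list gave 0 calls with limma, edgeR and DESeq2 and 0 at an unadjusted p under 0.05. Nrxn3, which was among the nearest to Clstn2 and Clstn3, had a log2 fold change of -0.58 (SE 0.35, adjusted p = 0.594). Nrxn2 had -0.10 (SE 0.30). With the replicate block 1 of the 2, Nrxn3, was called lower, beside 5.51% of all genes.

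Among 27 genes of other synaptic adhesion proteins, 3 were called lower and 0 higher (3.17% and 3.98% of all genes), with a median log2 fold change of -0.28 and 25 values below 0, where 46.6% of all genes tested were below 0. Cadm4, a SynCAM adhesion protein, fell from 5626 ± 1981 to 2806 ± 780 normalized counts (SD, n = 4 each; -0.97, SE 0.29). Nptn, the adhesion protein neuroplastin, fell from 48788 ± 25255 to 23155 ± 7356 (-0.96, SE 0.41). Ntrk3, which encodes TrkC, fell from 3414 ± 956 to 2149 ± 581 (-0.67, SE 0.26). The adjusted p of each of the 3 was 0.58, and the genotypes overlapped in each. Ptprs, a receptor phosphatase, was the most abundant and had the highest log2 fold change at 0.24 (SE 0.38, adjusted p = 0.836). That value rested on control 1, which had 47913 normalized counts against 137198 to 142349 in the other controls and 116981 to 138795 in mutants. Without control 1, Ptprs had -0.15, all 27 values were below 0 and 2 genes (Slitrk2 and Cadm4) were called lower. That fit called 643 of 31217 genes lower. With the replicate block 8 of 27 were called lower, beside 5.51% of all genes, and all 27 values were below 0. With scaling to the library total 1 gene, Cadm4, was called and 15 of 27 values were below 0. There 415 of 31171 genes were called lower, and the median log2 fold change of all genes was 0.23. Nptn, Ntrk3, Nlgn3 and Cadm1 are among the genes the study picked from these libraries, so the direction of this list is not independent evidence. Nlgn3 had -0.14 (SE 0.38, adjusted p = 0.916) and Cadm1 had -0.76 (SE 0.37, adjusted p = 0.58), and neither was called with limma, while Cadm1 was called lower with DESeq2 and both with the block.

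**Figure D5:**
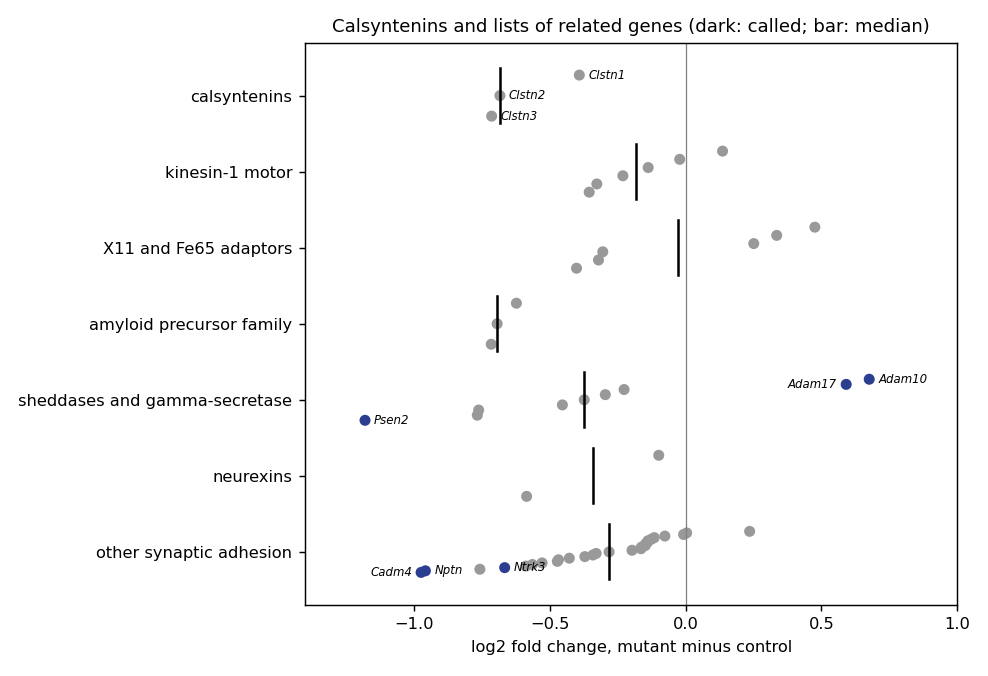
Log2 fold changes (mutant minus control) of the calsyntenins and of the genes in 6 lists of related proteins, 1 point per gene, dark where called, with a bar at each median. The amyloid precursor family, with a median of -0.69, lies nearest to the calsyntenins, and Adam10 and Adam17 are the called genes above 0.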

How the data were processed

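Libraries were grouped by the genotype and replicate number in their labels, with 4 libraries per genotype, which the study describes as biological replicates. Each value is a signal, deposited by the authors under the name of normalized counts: reads were aligned with STAR 2.4.0 to mm10, counted on constitutive regions of Fast DB genes and divided by 1 DESeq2 size factor per library. Use of strand in counting is not given in the sources used here. The study describes more than 1 sequencing batch, and no label assigns a library to one, so batch was not fitted and its part in the overlap and spread of the libraries was not tested. Of 56576 genes, 16918 were at 0 in all libraries. Dividing by the lowest value above 0 of a library gave whole reads for 100% of values (tolerance 0.01).

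The 31171 genes whose mean reached 10 in either genotype entered limma 3.58.1 (R 4.3.3, eBayes with trend), on log2(normalized count + 1), with Benjamini-Hochberg adjustment. A gene was called where its unadjusted p did not exceed 0.05 and it changed 1.5-fold or more. On this scale fold changes of low genes are understated. edgeR 4.0.16 (quasi-likelihood) and DESeq2 1.42.0 were run on the recovered reads as alternatives, and called 2279 and 2834 genes. All 3 were tested on simulated data. Ratios and levels were tested by exact permutation, which gives at least 0.0286 for 4 libraries against 4. Lengths were those of the longest coding GENCODE transcript, not of the constitutive regions on which reads were counted.

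The genes, lists and motifs were chosen with earlier results of these data known. Named genes are the calsyntenins, Erbb4 and Rpl22, in each list of related genes those called and those with the highest mean and the lowest and highest fold change, and the 5 genes with the highest r to each calsyntenin. Some genes are not reported here and were left out of the lists. Others (Aplp2, Aph1c, Psenen, Slitrk2, Nlgn3, Cadm1 and the markers) were named after their values were seen.

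Same-numbered libraries were compared by their deviations from the genotype means. Over 20014 genes with a mean of at least 100 in either genotype they correlated at 0.25, 0.21 and 0.24 for numbers 3, 4 and 5. Some libraries of other numbers were as alike: control 3 with mutant 2 (0.24), control 4 with mutant 5 (0.21) and control 5 with mutant 4 (0.20). Others were opposed. Control 3 had -0.28 and -0.32 with mutants 4 and 5. With mutants 2 and 3, control 4 had -0.18 and -0.17 and control 5 had -0.20 and -0.17. Control 1 lay between -0.05 and 0.06 with every mutant. Over all tested genes the same-numbered pairs 3, 4 and 5 had 0.10, 0.10 and 0.08. Values with the replicate number as a block are therefore given beside the unblocked ones.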

Additional observations from a re-analysis of the deposited data

Results flagged for a closer look

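Ptprs in control 1 stood apart from the other controls, at 47913 normalized counts against 137198 to 142349. It was the only such value among 70 groups of 4 libraries examined for the calsyntenins, their ratios, Erbb4, Rpl22 and the genes named from the lists and by likeness, where chance gives about 3.5. Control 1 also had the lowest number of genes above 0, and the part of the library in this value was not tested. No calsyntenin value and no ratio between calsyntenins stood apart in this way.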

How the results depend on the processing

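Pseudocounts of 0.1 and 10, filters on low values, quantile normalization, edgeR, DESeq2 and a fit without trend changed no direction and no call of a calsyntenin. Scaling to the library total moved the median of all genes from 0.06 to 0.23 and the calsyntenins to -0.21 (Clstn1), -0.50 (Clstn2) and -0.53 (Clstn3), which is -0.44, -0.73 and -0.76 relative to the median, against -0.45, -0.74 and -0.77 before. Calls were gained with the replicate block (-0.62, -0.96 and -0.99 for Clstn1, Clstn2 and Clstn3), with library weights (-1.02 for Clstn2 and -1.02 for Clstn3), with the excitatory marker mean as a covariate (-0.89 and -0.92) and, for Clstn2, in the libraries of numbers 3, 4 and 5 alone (-0.96). Directions turned for Clstn2 and Clstn3 with the MGE marker mean (0.031 and 0.12) and the PV marker mean (0.054 and 0.15). The PV, SST and excitatory covariates and the shared numbers alone were chosen after seeing the data. The causes were not tested.

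Leaving out 1 library gave -0.57 to -0.20 for Clstn1, -0.89 to -0.48 for Clstn2 and -0.94 to -0.45 for Clstn3. The log2 ratios between genotypes ran from 0.14 to 0.41 (Clstn1 to Clstn2), 0.16 to 0.47 (Clstn1 to Clstn3) and -0.039 to 0.088 (Clstn2 to Clstn3, below 0 without control 3). The replicate block changed no call of a ratio, where 3 pairs cannot go below an exact p of 0.25. In 4 libraries of 1 genotype the level tests cannot go below 0.125, with log2 ratios in controls and mutants of 4.21 and 4.50 (Clstn1 to Clstn2), 3.04 and 3.37 (Clstn1 to Clstn3) and -1.17 and -1.14 (Clstn2 to Clstn3).

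Over all genes, 988 were called lower and 1241 higher. These counts became 415 and 2255 with scaling to the library total, 1633 and 1997 with library weights, 1573 and 1261 with DESeq2, and 1719 and 1445 with the block. Genes called lower numbered 643 without control 1, 551 without control 3, 1537 without control 4, 1977 without control 5, 575 without mutant 4 and 515 without mutant 5, so the percentages of called genes depend on single libraries. With an adjusted p under 0.05, 14 genes were lower and 0 higher, against 36 and 32 with DESeq2 and 0 and 0 with the block.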

Other observations

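Among the genes with the CRE of Clstn2 and Clstn3 in a RefSeq window, 422 were tested. Their median log2 fold change was -0.09, and 5.69% were called lower. Over all 13461 tested genes with a window the median was -0.01 and 4.57% were called lower. The motif was chosen after the promoter sequences were seen, and the difference was not tested.

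The unnamed gene within the 3' end of Clstn1 held 4795, 8923, 6384 and 4781 normalized counts in controls 1, 3, 4 and 5 and 5233, 5370, 4016 and 4218 in mutants 2, 3, 4 and 5, so its highest value was in control 3, as for Clstn1. Within the span of Clstn2, the named gene 4921534H16Rik held at most 418.1 normalized counts.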
